A study of Arabidopsis thaliana with 12 samples.

Results

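Transcripts of 7 acyltransferase genes of glycerolipid assembly were followed in Arabidopsis thaliana seedlings given long-chain acyl-CoAs. The genes were chosen by name for their place in the pathway, 7 of the 28642 genes listed, and all 7 had enough reads to be among the 17036 genes tested. GPAT9 (AT5G60620) and LPAT2 (AT3G57650) put acyl chains on the glycerol backbone, LPCAT1 (AT1G12640) and LPCAT2 (AT1G63050) exchange acyl chains of phosphatidylcholine, and DGAT1 (AT2G19450), DGAT2 (AT3G51520) and PDAT1 (AT5G13640) make triacylglycerol. None of the 7 passed edgeR's test over all genes with any of the 3 acyl-CoAs, and neither did any other gene tested (0% of the 17036).

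The seedlings were wild type, grown in liquid half-strength MS medium with 0.5% sucrose, and were treated at day 14. The first group received stearoyl-CoA (C18:0 CoA, a saturated chain of 18 carbons), the second oleoyl-CoA (C18:1 CoA, 18 carbons with 1 double bond) and the third palmitoyl-CoA (C16:0 CoA, saturated as well, with 16 carbons). Each acyl-CoA was given at 0.1% for 90 min in 0.01% of the surfactant Pluronic F68, which the control group received alone. Each group had 3 libraries of poly(A) RNA, each from a pool of 80 whole seedlings, so a value is an average over organs and plants, in which fewer cells of a type and less RNA per cell cannot be told apart. The labels do not say whether the pools were grown and treated separately. The p-values of edgeR set group differences against the spread between these pools. That spread was estimated over all groups together and drawn towards that of other genes.

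An acyl-CoA is a fatty acid bound to coenzyme A, the activated form in which cells hand acyl chains from one lipid to another. In the endoplasmic reticulum GPAT9 acylates the first position of glycerol-3-phosphate and LPAT2 the second, which gives phosphatidic acid. After its phosphate is removed, the diacylglycerol left over becomes phosphatidylcholine, or triacylglycerol when a further chain is added. DGAT1 and DGAT2 take that chain from acyl-CoA, whereas PDAT1 takes it from a phospholipid, so that PDAT1 alone among the 7 does not use acyl-CoA as its donor. LPCAT1 and LPCAT2 re-acylate lysophosphatidylcholine with acyl-CoA and, running in both directions, let chains enter and leave phosphatidylcholine. In seeds DGAT1 and PDAT1 make most of the storage oil, while leaves and roots keep little triacylglycerol.

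LPCAT1 and LPCAT2 are close copies, and the stretch in which they are most alike shows how far reads of one can be told from reads of the other. The coding sequences were 84.38% identical over 1389 aligned bases. In the most similar 90-base stretch within single exons, 85 bases were identical and 5 differed, and the capitals below mark the 5 differing positions, each 5′ to 3′ on the strand of the gene (the reverse strand of the reference, RefSeq TAIR10.1).
LPCAT1, chr1:4304487-4304576: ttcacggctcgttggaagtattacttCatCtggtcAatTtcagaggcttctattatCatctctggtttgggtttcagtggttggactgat
LPCAT2, chr1:23377049-23377138: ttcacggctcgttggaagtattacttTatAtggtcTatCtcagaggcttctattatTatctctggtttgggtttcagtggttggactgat
The longest run of exon bases shared without a difference was 35, shorter than the 50 cycles of a read. Over all 7 genes, 0 of the 50-base windows within single exons occurred without a difference elsewhere in the genome. Windows across exon junctions and matches with differences were not checked.

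On TAIR10 the deposited table placed GPAT9 on chromosome 5 (24367198 to 24369790, 12 exons, 1342 exon bases) and LPAT2 on chromosome 3 (21349507 to 21353174, 11 exons, 1749 bases). LPCAT1 (4303312 to 4305798, 8 exons, 1795 bases) and LPCAT2 (23375884 to 23378291, 8 exons, 1688 bases) both lie on chromosome 1, on the reverse strand. DGAT1 lies on chromosome 2 (8426206 to 8429736, 16 exons, 2074 bases), DGAT2 on chromosome 3 (19110596 to 19112760, 8 exons, 1330 bases) and PDAT1 on chromosome 5 (4393062 to 4397541, 6 exons, 2811 bases), and GPAT9, LPAT2 and these 3 are on the forward strand. DGAT2 and GPAT9 are thus the shortest of the 7 and PDAT1 the longest. By the RefSeq annotation the exons of GPAT9, LPCAT1 and DGAT2 overlap a gene on the other strand by 141, 117 and 67 bases. The kit was stranded, but whether the counting used strand is not given in the sources used here, so those bases may carry reads of the neighbour.

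Depth ranged from 348140 to 6126277 exon reads per library, 17.6-fold. The 3 shallowest libraries were C18:0 CoA replicate 2 (602649 reads), C18:1 CoA replicate 1 (348140) and C16:0 CoA replicate 2 (640605), 1 in each treated group and none in the control. In them short genes stood higher against long genes than in the other 9, with a difference between the shortest and longest sixth of genes of 0.39, 0.45 and 1.10 (log2) in that order, against -0.46 to 0.08 in the others. Levels are given as CPM, the reads of a gene per 1000000 exon reads of its library, with totals scaled between libraries. The libraries ran on 8 lanes, of which 4 held 2 libraries of different groups. Each library carried 1 of 2 i7 index sequences, per the library names. The control and C18:0 CoA libraries and C18:1 CoA replicates 1 and 2 had the first. All C16:0 CoA libraries and C18:1 CoA replicate 3 had the second. Differences of C16:0 CoA from control or C18:0 CoA thus cannot be told apart from a difference of index, except through the C18:1 CoA libraries. On totals not scaled between libraries, a level of 3 reads was 8.62 CPM in the shallowest library and 0.490 CPM in the deepest. The tissue fitted its label, since the 6 green tissue marker genes summed to between 7041 and 19828 CPM in every library. The 6 root markers summed to between 186 and 394 CPM. Of the 4 seed markers OLEO1 had 3 reads over the 12 libraries, SESA3 16, ABI3 25 and CRA1 90, the last reaching 26.7 CPM in 1 library. Of the 2 pollen or flower markers PPME1 had no read and PI had 16, with up to 5.90 CPM.

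All 7 genes were expressed at middling levels, and GPAT9 was the highest of them. Per kilobase of exon, the scale on which levels of different genes can be compared, GPAT9 stood at 59.1 ± 18.9 CPM with C18:0 CoA, 38.8 ± 6.09 with C18:1 CoA and 46.5 ± 16.7 with C16:0 CoA, against 45.1 ± 5.69 CPM in the control (SD, n = 3 each). In the control it was followed by LPAT2 (32.3 ± 5.93), DGAT2 (23.8 ± 1.95), DGAT1 (18.8 ± 1.69), LPCAT1 (17.9 ± 5.14), PDAT1 (13.5 ± 0.701) and LPCAT2 (9.07 ± 2.89). Neighbours in that control order did not overlap between their 3 libraries, except DGAT1 with LPCAT1 and LPCAT1 with PDAT1, whose levels did not differ beyond their spread. Among the genes tested these control levels ran from percentile 30.7 for LPCAT2 to percentile 80.1 for GPAT9.

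The order of means was much the same in every group, and GPAT9 had the highest mean in all 4 groups and LPCAT2 the lowest. In the C18:1 and C16:0 CoA groups GPAT9 overlapped the next gene and LPCAT2 overlapped PDAT1. In the C18:0 CoA and control groups neither did. With C18:0 CoA and with C18:1 CoA, DGAT2 (31.7 ± 6.67 and 34.1 ± 12.7 CPM per kilobase) stood above LPAT2 (27.9 ± 11.3 and 28.8 ± 10.4), and both times the 2 genes overlapped. With C16:0 CoA, LPAT2 (35.9 ± 10.9) stood above DGAT2 (28.3 ± 6.03), as in the control, and these too overlapped. The summed level of the 7 genes was 298 ± 6.88 CPM with C18:0 CoA, 256 ± 31.4 with C18:1 CoA and 284 ± 22.4 with C16:0 CoA, against 273 ± 14.6 in the control. It was lowest in the shallowest library, C18:1 CoA replicate 1, at 221 CPM from 75 reads.

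**Figure D1:**
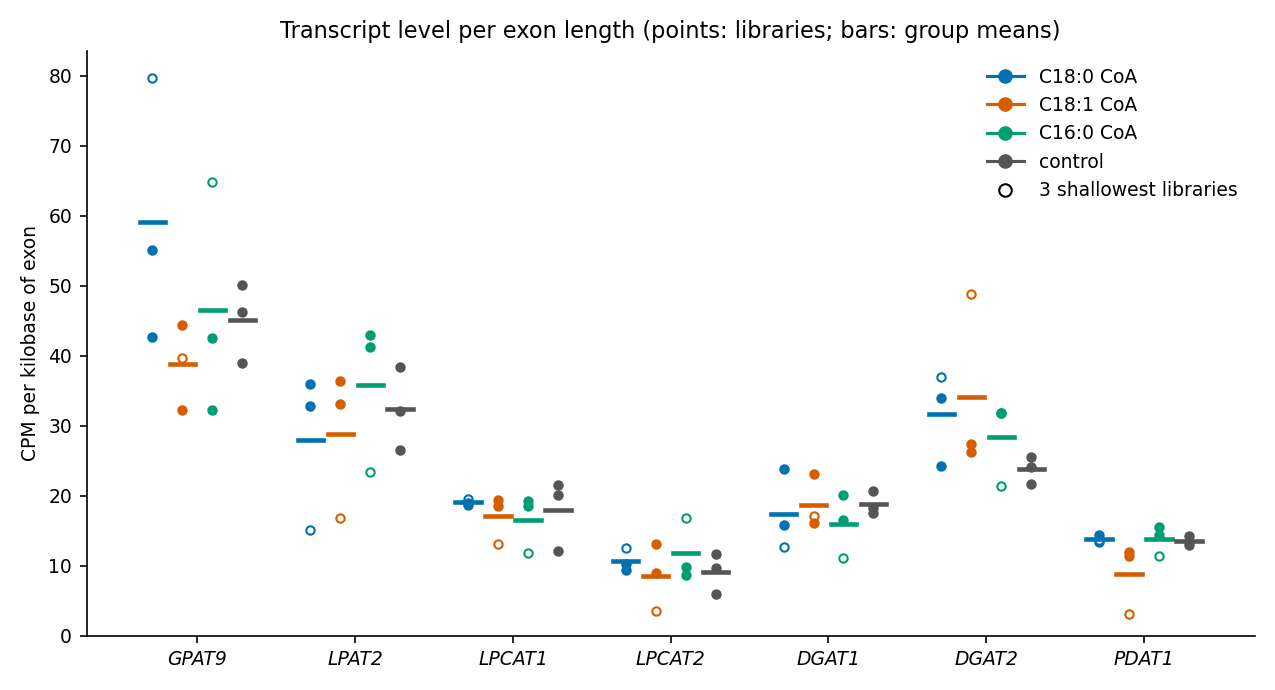
Level per exon length (CPM per kilobase) of the 7 genes, with 1 point per library, a bar at the mean of 3 libraries and open points for the 3 shallowest libraries. GPAT9 lies highest and LPCAT2 lowest in group means, and the open points lie at the edge of many groups.

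GPAT9, the enzyme that starts glycerolipid assembly outside the plastid, was the member that differed most between acyl-CoAs. It stood at 57.2, 107 and 73.9 CPM in C18:0 CoA replicates 1 to 3, at 53.1, 59.6 and 43.3 CPM with C18:1 CoA, at 43.2, 87.0 and 57.0 CPM with C16:0 CoA, and at 52.2, 62.1 and 67.2 CPM in the control. Each acyl-CoA group overlapped the control, and the 2 highest libraries of all were the shallow ones of C18:0 and C16:0 CoA. The log2 fold changes against control were 0.34 (SE 0.26), -0.22 (SE 0.27) and -0.01 (SE 0.27) with C18:0, C18:1 and C16:0 CoA. Without the 3 shallowest libraries they were 0.13, -0.22 and -0.26.

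LPAT2, which adds the second chain to give phosphatidic acid, was lowest, in each treated group, in the shallow library. It stood at 63.0, 26.3 and 57.3 CPM in C18:0 CoA replicates 1 to 3, at 29.5, 63.6 and 57.9 CPM with C18:1 CoA, at 75.2, 40.8 and 72.2 CPM with C16:0 CoA, and at 67.1, 56.2 and 46.3 CPM in the control. The 3 shallow libraries held 15, 10 and 23 reads of LPAT2 in that order, and without them each treated group lay within or above the control range. The log2 fold changes against control were -0.14 (SE 0.29), -0.07 (SE 0.30) and 0.18 (SE 0.29). Without the 3 shallowest libraries they were 0.06, 0.06 and 0.35, so that the sign turned with C18:0 and C18:1 CoA.

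LPCAT1, the first of the pair that exchanges chains on phosphatidylcholine, had the lowest coefficient of variation of the 7 over the 12 libraries, 18.7%. It stood at 33.5, 35.1 and 33.9 CPM with C18:0 CoA, at 23.6, 34.9 and 33.3 CPM with C18:1 CoA, at 33.3, 21.3 and 34.4 CPM with C16:0 CoA, and at 36.2, 38.7 and 21.6 CPM in the control. The 3 low values came from 8, 12 and 28 reads, 1 of them in the control. The log2 fold changes were 0.04, -0.04 and -0.10 (SE 0.26 to 0.27), and the widest of the 3 intervals, that for C16:0 CoA, ran from -0.66 to 0.46. LPCAT2 had fewer reads, from 2 to 124 per library, and stood at 17.2, 21.0 and 15.7 CPM with C18:0 CoA, at 5.90, 22.2 and 15.2 CPM with C18:1 CoA, at 16.7, 28.4 and 14.7 CPM with C16:0 CoA, and at 19.7, 16.2 and 10.04 CPM in the control. The groups overlapped, and the 2 extremes were again shallow libraries, with 2 reads (Poisson interval 0.715 to 21.3 CPM) and 16 reads (16.2 to 46.1 CPM). The log2 fold changes of LPCAT2 were 0.12, 0.07 and 0.21 (SE 0.36 to 0.37), the least precise of the 7 genes. Per kilobase, LPCAT1 was 1.80, 2.25 and 1.43 times LPCAT2 with C18:0, C18:1 and C16:0 CoA, against 1.99 times in the control (geometric means).

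DGAT1, the main diacylglycerol acyltransferase of seed oil, showed no common direction. It stood at 49.4, 26.3 and 32.7 CPM with C18:0 CoA, at 35.4, 33.3 and 47.8 CPM with C18:1 CoA, at 34.2, 23.1 and 41.7 CPM with C16:0 CoA, and at 36.3, 43.0 and 37.8 CPM in the control. Libraries of C18:0 and of C18:1 CoA lay on both sides of the control range, and those of C16:0 CoA within or below it. The lowest libraries with C18:0 and C16:0 CoA were the shallow ones, with 15 and 13 reads. The log2 fold changes were -0.04 (SE 0.26), 0.02 (SE 0.27) and -0.18 (SE 0.27, 95% interval -0.76 to 0.39). Without the 3 shallowest libraries they were 0.09, 0.05 and -0.05, so that the sign turned with C18:0 CoA.

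DGAT2, an unrelated enzyme for the same step, was the only 1 of the 7 whose estimate against control was above 0.3 (log2) with every acyl-CoA. It stood at 32.2, 49.1 and 45.2 CPM in C18:0 CoA replicates 1 to 3, at 64.9, 36.4 and 34.9 CPM with C18:1 CoA, at 42.3, 28.4 and 42.3 CPM with C16:0 CoA, and at 28.9, 32.0 and 34.0 CPM in the control. All 3 C18:1 CoA libraries lay above all 3 control libraries, the third by under 1 CPM, while C18:0 CoA replicate 1 and C16:0 CoA replicate 2 lay within or below the control range. The log2 fold changes were 0.38 (SE 0.26, 95% interval -0.17 to 0.93) with C18:0 CoA, 0.38 (SE 0.26, -0.17 to 0.93) with C18:1 CoA and 0.31 (SE 0.27, -0.25 to 0.87) with C16:0 CoA. With the 9 treated libraries set against the 3 controls, the value was 0.36 (SE 0.21, -0.09 to 0.80), with an unadjusted p of 0.113 in edgeR's quasi-likelihood test, in which 2.49% of all genes had one under 0.05 and 0% passed. No member lay apart in that comparison (0.475% of all genes did so above and 0.434% below the control). The 3 comparisons share the same control libraries, so their like values are not separate evidence. Without C18:1 CoA replicate 1, where 64.9 CPM stood for 22 reads, the C18:1 CoA value was 0.18. Within lanes the differences of DGAT2 from the control library were 0.27 (C18:1 CoA, lane 1), 0.39 and -0.25 (C16:0 CoA, lanes 2 and 3, log2), and no lane held both C18:0 CoA and control.

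PDAT1, which makes triacylglycerol from diacylglycerol and a phospholipid, was the most even of the 7 outside C18:1 CoA. It stood at 37.4, 38.6 and 40.4 CPM with C18:0 CoA, at 8.85, 32.1 and 33.5 CPM with C18:1 CoA, at 40.5, 32.0 and 43.4 CPM with C16:0 CoA, and at 36.3, 37.5 and 40.2 CPM in the control. All 3 C18:1 CoA libraries lay below all 3 control and all 3 C18:0 CoA libraries. The lowest, replicate 1, rested on 3 reads, with a Poisson interval of 1.83 to 25.9 CPM. The log2 fold change with C18:1 CoA was -0.38 (SE 0.27, 95% interval -0.94 to 0.19), and without replicate 1 it was -0.20. With C18:0 CoA and C16:0 CoA it was 0.04 (SE 0.26) and 0.06 (SE 0.27). Within lane 1 the C18:1 CoA library differed from the control library by -0.11 (log2).

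**Figure D2:**
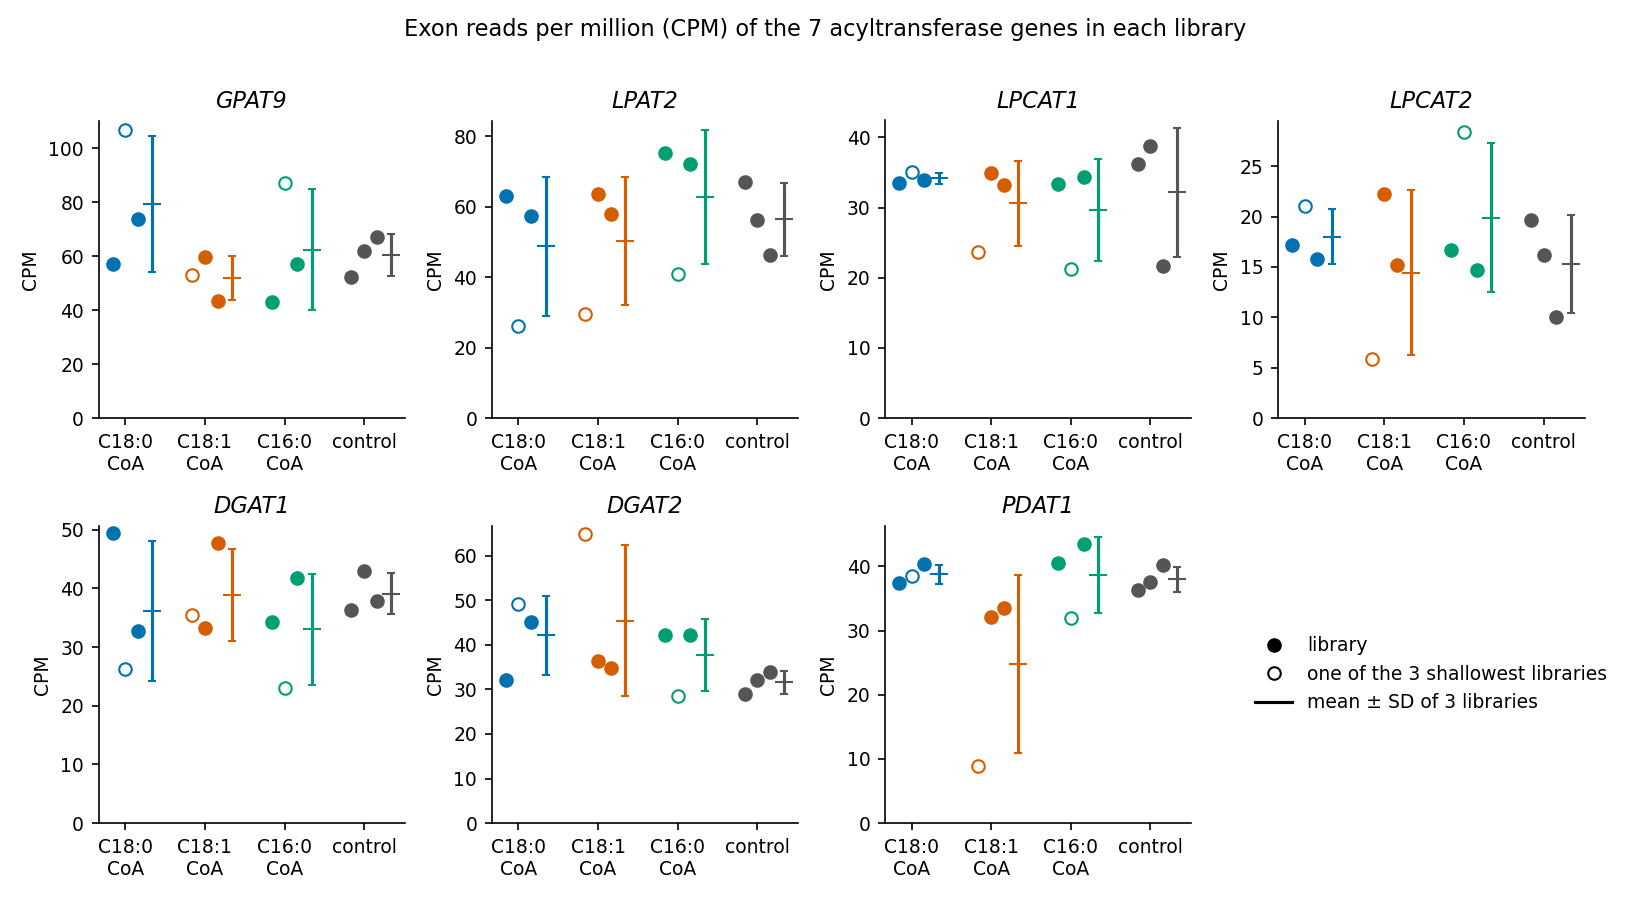
Level (CPM) of each gene in the 12 libraries, by group, with the mean ± SD of 3 libraries beside the points and open points for the 3 shallowest libraries. Groups overlap in every panel except DGAT2 and PDAT1, where the C18:1 CoA libraries lie above and below the control libraries.

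Against control, 0 of the 7 genes passed an adjusted p of 0.05 with C18:0, C18:1 or C16:0 CoA in edgeR's quasi-likelihood test, and 0 had an unadjusted p under 0.05. Among all 17036 genes 0 passed as well (0% in each comparison), with 321, 339 and 686 genes at an unadjusted p under 0.05 (1.88%, 1.99% and 4.03%). DESeq2 called 0, 2 and 0 genes in these comparisons and limma voom 0, 1 and 0, none of them a member. All 21 intervals of the members included 0, 12 of the 21 estimates were positive, and together the intervals ran from a 0.521-fold to a 1.98-fold level. An estimate whose interval includes 0 does not show that a gene kept its level.

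The middle of the 7 genes lay close to the middle of all genes. Their median log2 fold change was 0.04, -0.04 and 0.06 with C18:0, C18:1 and C16:0 CoA, against a median of 0.00 over all genes in every comparison. In the same order 5, 3 and 4 of the 7 were positive, against 50.4%, 50.4% and 49.9% of all genes. Groups that did not overlap were found for DGAT2 (higher) and PDAT1 (lower) with C18:1 CoA, 1 member each way, against 4.13% and 5.15% of all genes. With C18:0 CoA no member lay apart from the control (5.88% and 6.47% of all genes, higher and lower), nor with C16:0 CoA (5.44% and 5.96%). For 3 libraries against 3 an exact permutation test cannot give a p below 0.1. Without the 3 shallowest libraries DGAT2 and PDAT1 still lay apart with C18:1 CoA (10.5% and 9.75% of all genes then did, higher and lower). With C16:0 CoA, LPAT2, DGAT2 and PDAT1 then lay above the control (12.0% of all genes).

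**Figure D3:**
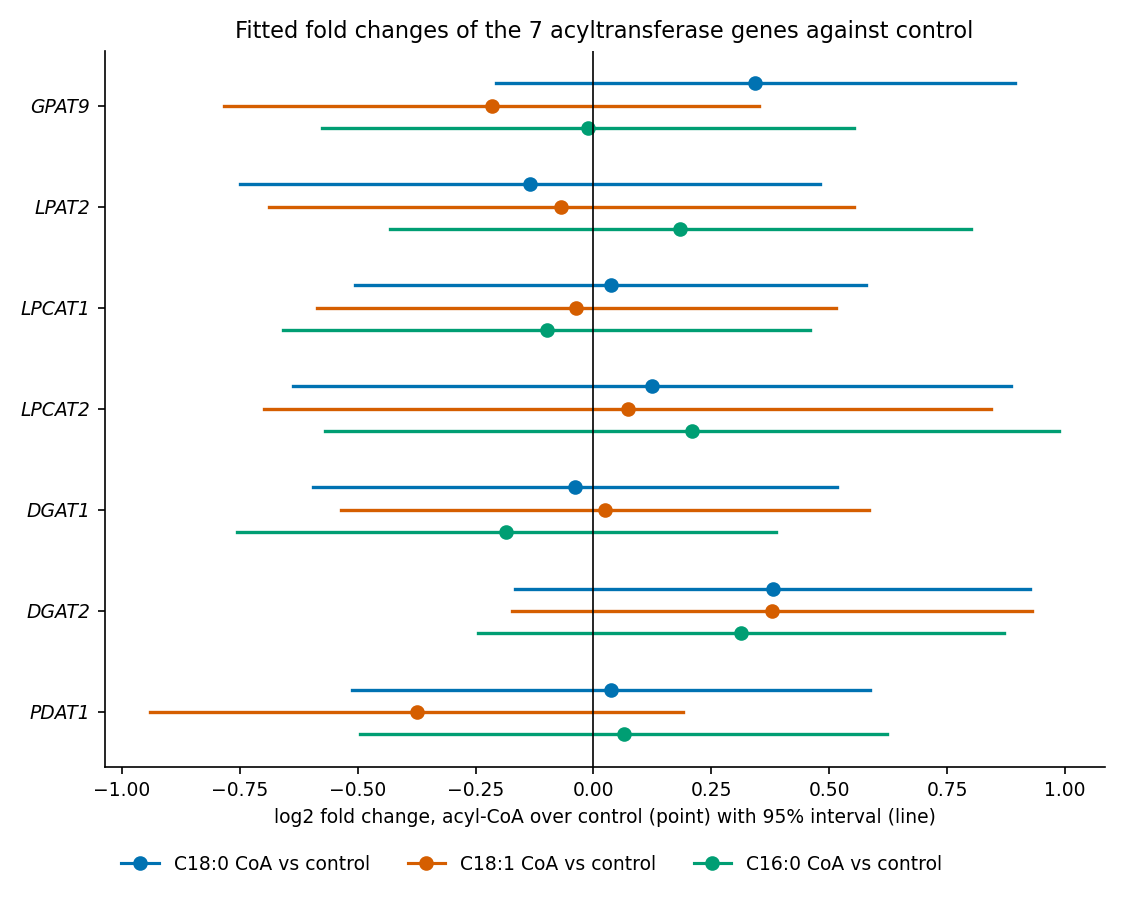
Fitted log2 fold changes of the 7 genes with each acyl-CoA against control, as points with 95% intervals as lines. All 21 lines cross 0, the 3 points of DGAT2 lie between 0.31 and 0.38, and the point of PDAT1 with C18:1 CoA lies at -0.38.

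The acyl-CoAs were given at the same labelled concentration (0.1%) for the same time (90 min), so their readouts were compared pair by pair. C18:1 CoA and C18:0 CoA differ by a double bond, C18:0 CoA and C16:0 CoA by 2 carbons, and C18:1 CoA and C16:0 CoA by both. Over these 3 pairs and 7 genes, 0 of 21 differences passed the test and 0 had an unadjusted p under 0.05, and all 21 intervals included 0. Over all genes edgeR called 0 (0%) in each pair, with 450, 360 and 483 genes at an unadjusted p under 0.05 (2.64%, 2.11% and 2.84%).

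In the pair that differs by the double bond, GPAT9 had the largest of the 21 estimated differences. C18:1 CoA libraries averaged 52.0 ± 8.17 CPM and C18:0 CoA libraries 79.4 ± 25.3 CPM, a log2 difference of -0.56 (SE 0.27, 95% interval -1.14 to 0.02, unadjusted p = 0.0588 and adjusted p = 1.00 in edgeR's quasi-likelihood test). The groups overlapped, since the highest C18:1 CoA library (59.6 CPM) was above the lowest C18:0 CoA library (57.2 CPM). Without the 3 shallowest libraries the difference was -0.35, smaller than that of GPAT9 between C18:0 and C16:0 CoA in the same setting (0.39). In the same pair PDAT1 differed by -0.41 (SE 0.28, -0.995 to 0.17) and its groups did not overlap, as for 5.07% of all genes on that side (4.82% on the other), and the other 5 genes differed by at most 0.07 either way.

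Between C18:0 and C16:0 CoA, which differ by chain length, GPAT9 differed by 0.36 (SE 0.27, -0.22 to 0.93) and LPAT2 by -0.32 (SE 0.30, -0.96 to 0.32), and the other 5 by between -0.09 and 0.14. The groups of all 7 genes overlapped there, against 4.17% and 3.65% of all genes that lay apart, higher and lower. Between C18:1 and C16:0 CoA, PDAT1 differed by -0.44 (SE 0.28, -1.03 to 0.15) and the other 6 by between -0.25 and 0.21, and again all groups overlapped (3.81% and 4.29% of all genes lay apart). The intervals of the 21 differences reached down to a 0.455-fold and up to a 1.90-fold level, so these data do not show that the compounds act alike on the genes.

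The authors' deposited table, which holds Baggerley's test on read proportions, set GPAT9 apart in 1 of its 6 comparisons. It gave GPAT9 a signed fold change of -1.30 in C18:1 CoA over C18:0 CoA with an FDR-corrected p of 0.00595, where 936 of 28642 genes (3.27%) had a value under 0.05. No member was under 0.05 in the other 5 comparisons of the authors' deposited table, where 3.65%, 3.22% and 2.90% of genes were with C18:0 CoA, C18:1 CoA and C16:0 CoA over control, and 1.21% and 2.17% with C16:0 CoA over C18:0 CoA and over C18:1 CoA. In the authors' deposited table the smallest values of any member against control were 0.230 with C18:0 CoA and 0.303 with C18:1 CoA, both for DGAT2, and every member stood at 1 with C16:0 CoA. The other member values under 1 in the authors' deposited table were 0.354 and 0.488, for GPAT9 with C18:0 and C18:1 CoA, and 0.175, for GPAT9 in C16:0 CoA over C18:0 CoA.

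Several of the 7 genes varied with the depth of the library. LPAT2 stood at 26.3 to 40.8 CPM in the 3 shallowest libraries and at 46.3 to 75.2 CPM in the other 9, without overlap. Across the 12 libraries its log2 level had a correlation with log10 depth of 0.81 (Spearman 0.57), higher than that of 97.6% of the genes tested. The 2 shortest genes ran the other way, with values of -0.49 for GPAT9 and -0.61 for DGAT2 (Spearman -0.36 and -0.55), below all but 15.6% and 10.1% of genes. LPCAT1 (0.68, Spearman 0.55), DGAT1 (0.63, Spearman 0.55) and LPCAT2 (0.33, Spearman 0.20) were positive. PDAT1 had 0.56 but a Spearman value of 0.03, with its lowest level in the shallowest library. The points share library, depth and length composition.

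**Figure D4:**
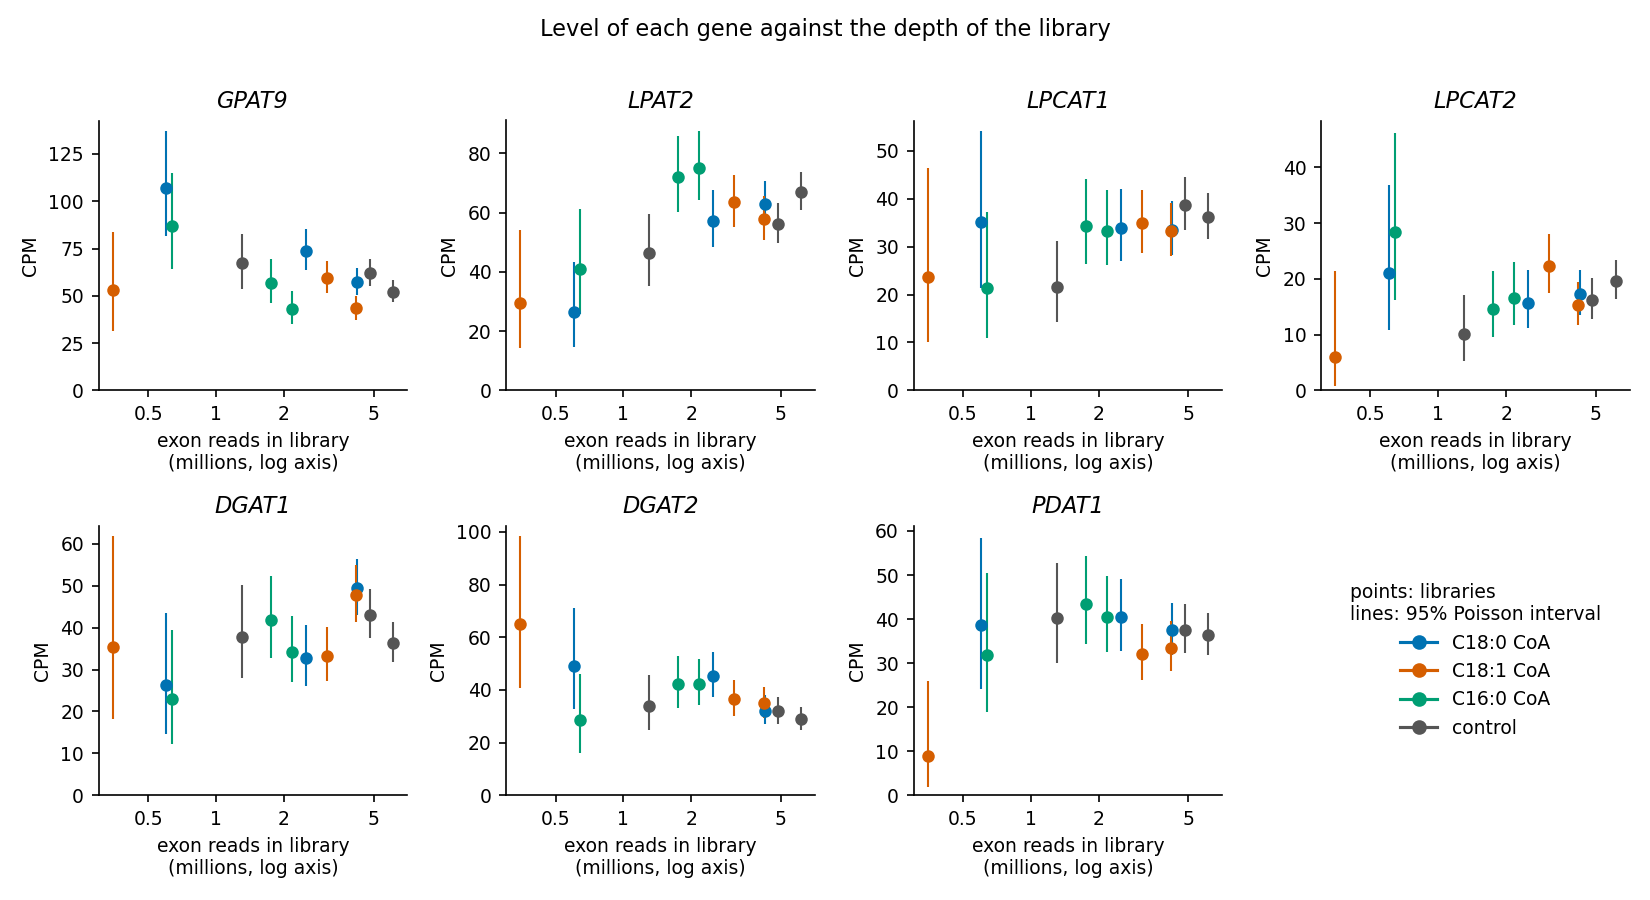
Level of each gene (CPM) against exon reads in the library (log axis), with 1 point per library and its 95% Poisson interval, coloured by group. LPAT2 lies lowest in the 3 shallowest libraries, whereas GPAT9 reaches its highest levels, 107 and 87.0 CPM, in 2 of them.

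The balance between the enzymes of a step was compared within each library, as a ratio of levels per kilobase, which needs no scaling of totals between libraries. The genes of a ratio differ in exon length (DGAT1 2074 bases, DGAT2 1330). The difference between short and long genes varied between libraries, up to 1.10 (log2) in C16:0 CoA replicate 2. Its part in the ratios was not tested. DGAT1 stood at 0.518, 0.521 and 0.633 times DGAT2 in the C16:0 CoA libraries and at 0.807, 0.860 and 0.714 times in the control libraries. All C16:0 CoA ratios thus lay below all control ratios (exact two-sided permutation p = 0.1, the smallest possible; 0.75 adjusted over 12 ratio tests). The ratio was 0.985, 0.344 and 0.464 with C18:0 CoA and 0.350, 0.587 and 0.878 with C18:1 CoA, so both of these groups overlapped the control. The other 3 ratios, DGAT1 over PDAT1, LPCAT1 over LPCAT2 and GPAT9 over LPAT2, overlapped the control with every acyl-CoA. DGAT1 over PDAT1 was 1.22, 2.45 and 1.13 with C18:0, C18:1 and C16:0 CoA, against 1.39 in the control (geometric means, exact p 0.5, 0.2 and 0.2).

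Reads in introns and across exon junctions gave a second view of the same transcripts. Of all reads in the 7 genes 102 fell in introns, 1.11%, against 2.17% over all genes. GPAT9 had the highest share, at 14 of its reads with C18:0 CoA (2.76%, 95% Wilson interval 1.65% to 4.58%), 18 with C18:1 CoA (4.35%, 2.77% to 6.77%) and 2 with C16:0 CoA (0.806%, 0.221% to 2.89%), against 9 in the control (1.23%, 0.649% to 2.32%). These shares pool 3 libraries each, and the intervals cover counting error only, since reads without molecular identifiers are not independent molecules. Junction reads made up 75.9% of the exon reads of GPAT9, a gene of 12 exons, and 16.1% of those of PDAT1, a gene of 6 exons, and between 39.9% and 58.7% in the other 5. The share of PDAT1 was 14.0%, 17.6% and 16.8% with C18:0, C18:1 and C16:0 CoA, against 16.3% in the control.

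The rest of the pathway also held no gene that passed. Of 50 further genes in 6 lists, 36 were tested and 0 passed over all genes in any comparison. With C18:0 CoA 18 of the 36 were positive, with C18:1 CoA 17 and with C16:0 CoA 21, at medians of 0.01, -0.02 and 0.04. In the same order 1, 0 and 5 of the 36 had an unadjusted p under 0.05 in edgeR, against 1.88%, 1.99% and 4.03% of all genes tested. Among the other glycerol-3-phosphate acyltransferases (6 tested of 9), the plastid enzyme gene ATS1 stood at 36.8, 8.77 and 34.3 CPM with C18:0 CoA. All lay below the control libraries at 50.7, 42.2 and 40.9 CPM, as in 6.47% of all genes tested. The log2 fold change of ATS1 was -0.58 (SE 0.32), and its lowest library was the shallow one. GPAT8, a cutin biosynthesis gene, was at 0.50 (SE 0.35) with C16:0 CoA. The other lysophosphatidate acyltransferases (3 tested of 4) included the plastid enzyme gene ATS2, at 0.23 (SE 0.19) with C16:0 CoA, and LPAT5, at 0.56 (SE 0.63) with C18:1 CoA. Of the remaining acyl transfer genes (3 tested of 5), DGAT3, a soluble diacylglycerol acyltransferase, was at -0.20 (SE 0.21) and AT1G80950 at 0.28 (SE 0.25), both with C18:1 CoA.

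Between the members' steps, the phosphatidate phosphatase genes PAH1 and PAH2, whose products release diacylglycerol, stood lower with C16:0 CoA. PAH1 was at 15.8, 5.33 and 14.7 CPM with C16:0 CoA, against 24.9, 23.3 and 19.3 CPM in the control, a log2 fold change of -0.78 (SE 0.34, unadjusted p = 0.0319 and adjusted p = 0.988 in edgeR). PAH2 was at 58.5, 8.88 and 59.8 CPM, against 82.5, 70.4 and 85.7 CPM in the control, -0.76 (SE 0.33, unadjusted p = 0.0323 and adjusted p = 0.988 in edgeR). In both genes all 3 C16:0 CoA libraries lay below the control, as in 5.96% of all genes tested. The lowest, the shallow replicate 2, rested on 3 and 5 reads. With C18:0 and C18:1 CoA PAH1 was at -0.19 (SE 0.32) and -0.02 (SE 0.32), and PAH2 at -0.54 (SE 0.32) and -0.26 (SE 0.32). All 3 C18:0 CoA libraries of PAH2 lay below the control too, as in 6.47% of all genes tested. PAH1 and PAH2 were 2 of the 11 genes tested of 13 in the list of phosphatases and head group enzymes. The other 9 had an unadjusted p above 0.05 against control. In the glycerol-3-phosphate supply list (4 tested of 4), GPDHC1, a glycerol-3-phosphate dehydrogenase gene, was at -0.27 (SE 0.28) with C16:0 CoA and AT3G07690 at 0.29 (SE 0.29) with C18:0 CoA.

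The list of lipid droplet and triacylglycerol turnover genes (9 tested of 15) held the largest estimate of the 36, that of OLEO4. OLEO4, an oleosin gene, was at 6.20, 10.5 and 7.67 CPM with C18:0 CoA, at 2.95, 3.70 and 2.11 CPM with C18:1 CoA and at 5.85, 8.88 and 5.64 CPM with C16:0 CoA, against 3.65, 1.42 and 1.54 CPM in the control. All libraries of C18:0 and of C16:0 CoA lay above the control, as in 5.88% and 5.44% of all genes tested, while those of C18:1 CoA overlapped it. These levels stood for 1 to 27 reads per library, and the log2 fold changes were 1.65 (SE 0.55, unadjusted p = 0.00727), 0.26 (SE 0.61) and 1.40 (SE 0.58, unadjusted p = 0.0245), with an adjusted p of 0.988 or more in edgeR. The 4 seed markers together stood at 3.22 to 31.1 CPM with C18:0 CoA, 0.234 to 5.90 with C18:1 CoA and 0.00 to 3.60 with C16:0 CoA, against 1.22 to 4.63 CPM in the control, and their part in the OLEO4 values was not tested. AT1G67360, annotated in RefSeq as a rubber elongation factor protein, was at 0.57 (SE 0.24, unadjusted p = 0.0264) with C16:0 CoA.

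**Figure D5:**
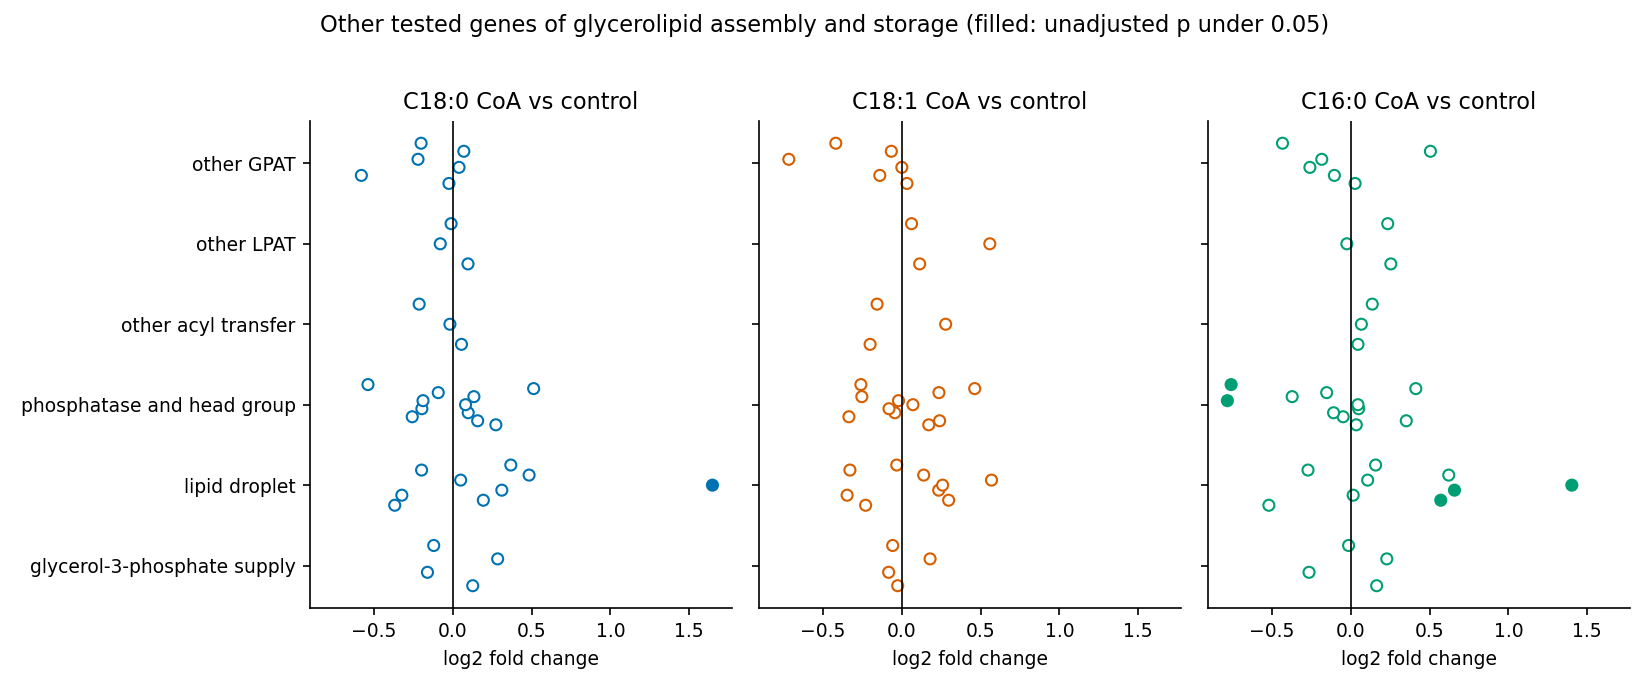
Log2 fold changes of 36 further genes of glycerolipid assembly and storage against control, by list, with 1 point per gene and filled points for an unadjusted p under 0.05. Taken over the comparisons, every list has points on both sides of 0. Within 1 comparison, the other LPAT list with C18:1 CoA and the other acyl transfer list with C16:0 CoA have only positive points (3 of 3 each). The filled point farthest right is OLEO4, at 1.65 with C18:0 CoA and 1.40 with C16:0 CoA.

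The 7 genes showed no common pattern from library to library. Over the 12 libraries the 21 correlations between their log2 levels ran from -0.69 (GPAT9 with DGAT1) to 0.65 (LPCAT2 with PDAT1), with a median of 0.08, and without the 3 shallowest libraries the median was -0.10. The value of LPCAT2 with PDAT1 turned to -0.56 without those libraries, and its Spearman value over all 12 was -0.26. LPCAT1 and LPCAT2 had a value of 0.35 over 12 libraries and 0.80 over the 9 deeper ones. Among 6898 genes with at least 10 reads in every library, the likeness of each to a member was measured over the 12 libraries. AT4G15640 came closest to LPAT2 (Pearson 0.96 over 12 libraries, 0.84 over 9) and AT2G39130 to LPCAT1 (0.95 and 0.92). UVR8 came closest to PDAT1 (0.95 and 0.65), NUDT18 to DGAT2 (0.93 and 0.82), AT2G04410 to GPAT9 (0.91 and 0.78), AT1G24160 to DGAT1 (0.91 and 0.87) and AT2G30060 to LPCAT2 (0.90 and 0.56). The second closest were TOPP3 to GPAT9, EMB2770 to LPAT2, AT5G26830 to LPCAT1, ORP2A to LPCAT2, FIB to DGAT1, AT1G26300 to DGAT2 and AT4G23470 to PDAT1, with values of 0.89 to 0.95. These likenesses are the largest of all those compared, and the libraries share differences of depth.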

How the data were processed

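Exon reads per gene and library were counts as the authors deposited them, with exon lengths and intron and junction reads, per the file headers. Reads were mapped to TAIR10, per the submitters' processing notes, and the aligner is not given in the sources used here. In every cell the unique exon reads equalled the total. The deposited RPKM values, normalized by the authors, served as an alternative for the control levels. Signed fold changes (a score below -1 for a lower proportion of reads) and FDR-corrected p-values of Baggerley's test are the authors' deposited values. Of the identifiers, 28009 matched RefSeq, which gave the symbols.

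The 12 libraries entered 1 model in edgeR 4.0.16 (R 4.3.3; filterByExpr, TMM, quasi-likelihood test), two-sided, Benjamini-Hochberg adjusted over 17036 genes, threshold 0.05. CPM uses TMM-scaled totals, and log2 levels a prior count of 2. Intervals are 95%. The 7 genes and the lists were chosen with earlier results of these data known. In each list up to 2 genes were named, by the smallest p against control, and the 2 genes most like each member were named, and other genes, within-library ratios and 2 alternatives were chosen after seeing the data. DESeq2 1.42.0 and limma 3.58.1 were alternatives. The fit was checked on simulated counts.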

Additional observations from a re-analysis of the deposited data

How the results depend on the processing

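No alternative called any of the 7 genes in any of the 7 comparisons (smallest adjusted p 0.80 over all of them). Of 819 alternative fold changes of the members 787 lay within 1 SE of the value given, and 19 of the 32 others came from a term per lane, which leaves 1 residual degree of freedom. The C16:0 CoA and control groups do not share an i7 index. With a term for that index, the C16:0 CoA values of DGAT1, DGAT2, GPAT9 and PDAT1 against control also moved by more than 1 SE. They became -0.68 (DGAT1), 0.70 (DGAT2), 0.40 (GPAT9) and -0.31 (PDAT1). The other members stayed within 1 SE, at 0.45 (LPCAT2), -0.17 (LPCAT1) and 0.04 (LPAT2). Only 11 of 49 estimates kept their sign under every alternative, DGAT2 with C18:1 and C16:0 CoA and PDAT1 with C18:1 CoA among them. Unadjusted p-values under 0.05 came up 8 times. GPAT9 in C18:1 against C18:0 CoA had -0.55 with only the groups compared, -0.63 with the replicate block, -0.77 without C18:0 CoA replicate 1 and -0.72 without C18:1 CoA replicate 2. GPAT9 in C18:0 against C16:0 CoA had 0.59 without C16:0 CoA replicate 2, and DGAT2 with C16:0 CoA 0.44 without the 3 shallowest libraries. PDAT1 had -0.54 and -0.58 in C18:1 against C18:0 and C16:0 CoA with the length trend removed. All are log2 fold changes from edgeR with an adjusted p of 0.88 or more.

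Counts of all genes called, 0 as given, were 2 (DESeq2), 1 (limma voom), 1 (no low-count filter), 1 (only the groups compared), 5 (without the 3 shallowest libraries) and 1 (length trend removed) with C18:1 CoA against control. With a term per lane they were 1, 2 and 1 with C18:0 CoA, C16:0 CoA and all acyl-CoAs against control and 1 in C18:1 against C16:0 CoA. Without the 3 shallowest libraries they were 2 with C16:0 CoA against control and 1 in C18:1 against C16:0 CoA, where DESeq2 and no filter gave 1 each. The replicate block left the count at 0 in every comparison, and the numbers did not pair the libraries (correlations of same-number deviations -0.23 to 0.23, 3 of 12 libraries closest to their own number). Members lying apart without the 3 shallowest libraries, chosen after seeing the data, numbered 3 with C16:0 CoA against control (3 higher, as were 12.0% of all genes), 3 in C18:0 against C16:0 CoA (1 higher and 2 lower, 18.1% and 18.5%) and 3 in C18:1 against C16:0 CoA (3 lower, 16.2%), each 0 with all libraries. The cause of these differences was not tested. Depth limits LPCAT2 and PDAT1 most, with 2 and 3 reads in the shallowest library.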
